A study of Mus musculus with 12 samples.

Results

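Zscan4 and Usp17l are a pair of multicopy gene families known as markers of the 2-cell stage of the mouse embryo. All genes whose symbol begins with Zscan4 or Usp17l were taken from the gene tables of mouse embryonic stem cells (ESCs) in which YAP had been knocked down or overexpressed. This gave 10 of the 24480 genes listed, 5 Zscan4 copies (Zscan4a, Zscan4b, Zscan4c, Zscan4d and Zscan4f) and 5 Usp17l copies (Usp17la, Usp17lb, Usp17lc, Usp17ld and Usp17le). The families were chosen by their measured fold changes in YAP KD against CTR KD and in YAP OE against CTR OE, so their values there are given as a description, without a test.

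All cells were of the E14Tg2a line, an established mouse ESC line that grows without feeder cells, and all were transiently transfected. YAP KD cells received siRNAs against Yap1 and CTR KD cells a scrambled siRNA. YAP OE cells received a pCAG plasmid encoding mouse YAP, which is driven by the ubiquitously active CAG promoter, whereas CTR OE cells received a pCAG plasmid named in the labels as encoding GFP and in the study's text as empty. Each group held 3 libraries described as independent biological replicates, 12 libraries in all, and the 2 experiments had separate controls.

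Zscan4 genes encode nuclear proteins with a SCAN domain and zinc fingers, which are known for their part in telomere maintenance and genome stability of ESCs. Usp17l genes, also named Dub genes, encode deubiquitinating enzymes of the ubiquitin-specific protease class. In ESC cultures both families are expressed together with other early embryonic genes in a small, changing fraction of the cells, whereas YAP is a transcriptional coactivator that binds DNA through TEAD factors. In bulk RNA, fewer cells expressing a gene and less RNA of it per cell cannot be told apart.

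Both families lie on chromosome 7 (GRCm38.p6, the assembly also called mm10). The Zscan4 copies spanned 608.1 kb. In genome order they were Zscan4a (chr7:10794241-10799065, a transcribed pseudogene in RefSeq), Zscan4b (chr7:10900740-10905050), Zscan4c (chr7:11005745-11010547), Zscan4d (chr7:11161643-11166148) and Zscan4f (chr7:11397915-11402318). The Usp17l copies formed 2 groups within 1612.6 kb. Usp17ld (chr7:103250086-103252505) and Usp17lc (chr7:103416696-103419174) lay together. Usp17le (chr7:104767961-104777470), Usp17lb (chr7:104840257-104842583) and Usp17la (chr7:104857016-104862667) lay further along the chromosome. Each copy was represented by 1 transcript, and all copies but Zscan4a are listed as protein coding.

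The 250 bases upstream of the RefSeq start were compared because the members moved together in YAP OE. Windows were given for 4 copies of each family, all except Zscan4a and Usp17le. Shown are the Zscan4 copies with the highest level and with the largest log2FC in YAP OE, and the Usp17l copies with the largest and the smallest log2FC there. Capitals mark TATAAAAG, a TATA box with its flank, and CCACACCC, a run of letters present in every Usp17l window.
Zscan4f, chr7:11397665-11397914, plus strand: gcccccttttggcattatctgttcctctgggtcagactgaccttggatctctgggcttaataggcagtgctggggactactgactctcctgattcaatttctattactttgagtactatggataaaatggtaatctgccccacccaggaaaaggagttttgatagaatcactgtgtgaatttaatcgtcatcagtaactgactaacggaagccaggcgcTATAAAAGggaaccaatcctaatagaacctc
Zscan4d, chr7:11166149-11166398, minus strand: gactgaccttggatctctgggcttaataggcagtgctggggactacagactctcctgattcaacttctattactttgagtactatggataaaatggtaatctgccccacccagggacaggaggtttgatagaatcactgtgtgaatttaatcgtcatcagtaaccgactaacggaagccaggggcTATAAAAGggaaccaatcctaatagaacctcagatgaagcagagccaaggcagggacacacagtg
Usp17la, chr7:104856766-104857015, plus strand: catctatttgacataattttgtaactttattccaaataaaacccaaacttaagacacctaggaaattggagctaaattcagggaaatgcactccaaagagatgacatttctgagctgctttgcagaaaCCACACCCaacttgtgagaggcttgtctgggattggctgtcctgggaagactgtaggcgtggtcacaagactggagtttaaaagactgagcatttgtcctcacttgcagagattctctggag
Usp17lc, chr7:103416446-103416695, plus strand: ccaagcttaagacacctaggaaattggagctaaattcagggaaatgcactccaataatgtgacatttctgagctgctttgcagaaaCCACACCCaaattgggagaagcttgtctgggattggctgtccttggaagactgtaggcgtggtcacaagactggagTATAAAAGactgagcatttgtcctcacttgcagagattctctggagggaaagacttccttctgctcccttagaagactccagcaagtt

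TATAAAAG was present in 4 of 4 Zscan4 windows and in 3 of 4 Usp17l windows, and it was absent from that of Usp17la. Of 32851 upstream windows of all mouse genes, searched in the same way on both strands, 1.51% held it. TATAAA, the box without its flank, was also in 4 of 4 and 3 of 4 windows, and in 12.4% of all windows. The box began 31 bases before the annotated start in Zscan4b, Zscan4f and Usp17lb, and 54, 65, 88 and 110 bases before it in Zscan4c, Zscan4d, Usp17lc and Usp17ld. CCACACCC, which was noticed on reading the windows, was present in 4 of 4 Usp17l windows, in 0 of 4 Zscan4 windows and in 3.2% of all windows. GGAATG, the core of the TEAD motif, was in 0 of these 8 windows and in 12.6% of all windows. These letters were searched in 250 bases only. The windows of a family are near copies of each other, so their hits are not separate observations to set against the share of all windows.

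The copies of a family were close to each other in sequence, which limits how reads can be divided between them. Identity was taken over aligned bases only, with gaps and unaligned ends left out. Upstream windows were 94.7 to 99.6% identical between pairs of Zscan4 copies, over 216 to 250 aligned bases of 250. Between pairs of Usp17l copies they were 92.1 to 97.3% identical, over 165 to 228 aligned bases. Coding sequences were compared without Zscan4a, which was not in the coding set, so runs shared with it are not counted below. They were 96.6 to 99.6% identical between the other Zscan4 copies, with the maximum between Zscan4c and Zscan4f. Between Usp17l copies they were 90.8 to 98.4% identical, with the maximum between Usp17lc and Usp17ld. Of all runs of 100 coding bases, 75.3% in Zscan4f and 73.6% in Zscan4c were found without a mismatch in another copy, against 25.5% in Zscan4b and 29.0% in Zscan4d. In the Usp17l family the share was 48.4% in Usp17lc and in Usp17ld, and 5.74 to 11.5% in the other 3 copies.

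The deposited counts carry this sharing. RSEM, the counting tool, splits a read that fits several genes between them, and the counts of all 5 Zscan4 copies, of Usp17lc and of Usp17ld were not whole numbers in 12 of 12 libraries. Summed over the 5 copies, each family had a whole number of counts (within 0.015) in 12 of 12 libraries. The family sum was therefore taken as the main value, and a value for a single copy depends on how the shared reads were assigned.

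Libraries held 42926256 to 57240703 counts, of which the Zscan4 family took 1251 to 3501 and the Usp17l family 107 to 328. Values are given as CPM, read counts relative to a library total of 1000000, with totals scaled by the trimmed mean of M values (TMM), mean ± SD, n = 3. Yap1 was at 54.9 to 58.5 CPM in YAP KD and 116.4 to 135.1 CPM in CTR KD, and at 243.8 to 276.6 CPM in YAP OE and 130.2 to 133.9 CPM in CTR OE. The ESC label held in all 12 libraries. A set of 8 ESC markers, among them Pou5f1, Sox2, Nanog and Dppa5a, summed to 5548 to 6058 CPM, against 6.22 to 8.76 CPM for 7 primitive endoderm markers and 2.55 to 4.21 CPM for 8 fibroblast markers. The fibroblast marker Lum was at 0 in 10 libraries.

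The Zscan4 family was lower in YAP KD and higher in YAP OE than in the respective controls. Its summed level was 43.6, 35.8 and 37.9 CPM in CTR KD replicates 1 to 3 and 29.7, 29.9 and 30.1 CPM in YAP KD. Every YAP KD library was below every CTR KD library, and the YAP KD replicates lay close together on CPM (29.9 ± 0.227 CPM, against 39.1 ± 4.06 CPM in CTR KD). This closeness was not seen on TPM, a scale that also divides by transcript length (8.37 ± 1.18 TPM in YAP KD and 11.0 ± 1.48 TPM in CTR KD). From the counts, the log2 fold change (log2FC) of the sum was -0.38 with a standard error (SE) of 0.0693, which corresponds to 76.6% of the control level.

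In the overexpression experiment the Zscan4 sum was 47.7, 45.0 and 37.9 CPM in CTR OE and 67.8, 63.0 and 58.2 CPM in YAP OE. All 3 YAP OE libraries exceeded all 3 CTR OE libraries. The means were 63.0 ± 4.81 CPM in YAP OE and 43.5 ± 5.05 CPM in CTR OE, a log2FC of 0.53 (SE 0.0707) or 1.45-fold.

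The Usp17l family was higher in YAP OE as well, whereas its sum in YAP KD overlapped the control. It was at 2.81, 2.79 and 2.24 CPM in CTR KD and 2.59, 2.43 and 2.39 CPM in YAP KD. The YAP KD libraries lay inside the control range (2.47 ± 0.104 against 2.61 ± 0.323 CPM), with a log2FC of -0.083 (SE 0.120). In CTR OE the sum was 3.78, 2.72 and 2.63 CPM, and in YAP OE it was 6.08, 5.58 and 5.84 CPM. CTR OE replicate 1 was the highest control library, and it remained below all YAP OE libraries. The means were 5.84 ± 0.248 and 3.05 ± 0.640 CPM, a log2FC of 0.94 (SE 0.120) or 1.92-fold. In the order of the group means, YAP KD, CTR KD, CTR OE and YAP OE, the libraries of neighbouring groups overlapped between the controls for both families and between YAP KD and CTR KD for Usp17l.

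**Figure D1:**
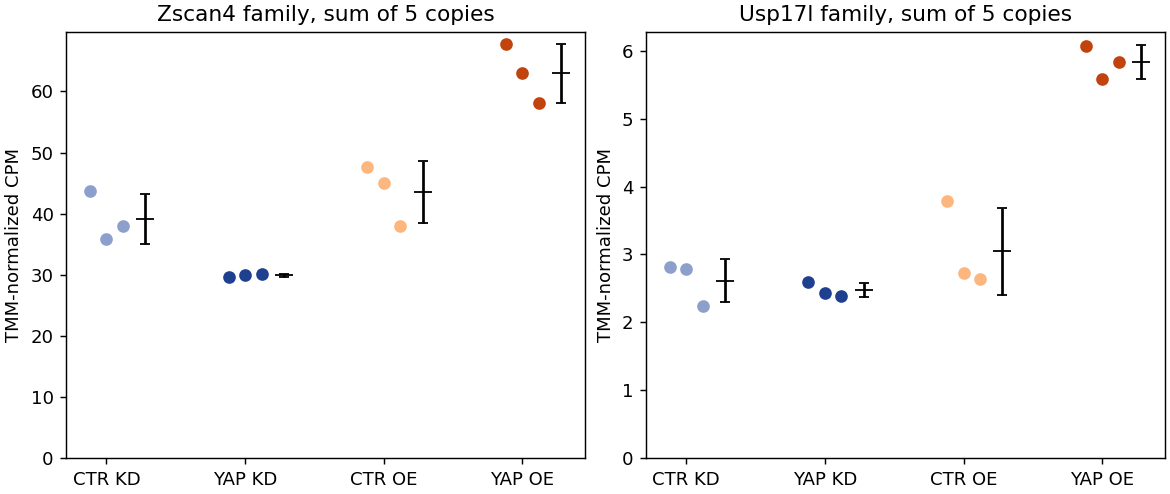
Summed level of the 5 Zscan4 copies (left) and the 5 Usp17l copies (right) in TMM-normalized CPM for each library of the 4 groups; points are libraries and the black bars give mean ± SD (n = 3). The YAP OE libraries lie above all others in both families, at 58.2 to 67.8 CPM for Zscan4 and 5.58 to 6.08 CPM for Usp17l, and YAP KD lies below CTR KD for Zscan4 alone.

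In the Zscan4 family the copies differed in level but moved in the same direction. On the TPM scale, which divides by transcript length, Zscan4f had the highest level in every library, between 2.97 and 10.02 TPM, and Zscan4b and Zscan4d were between 0.45 and 1.78 TPM. In CPM, Zscan4f was at 17.4, 13.9 and 14.4 in CTR KD and at 11.0, 11.8 and 11.9 in YAP KD. Zscan4f was thus lower in each YAP KD library than in any CTR KD library. It was at 18.0, 17.1 and 15.1 CPM in CTR OE and at 28.4, 25.1 and 23.9 CPM in YAP OE. Here each YAP OE library was above the controls, and the log2FCs of Zscan4f were -0.39 (SE 0.0883) on knockdown and 0.63 (SE 0.0713) on overexpression.

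Zscan4a, the copy listed as a pseudogene, had the smallest change of its family in YAP OE. It was at 9.22, 7.49 and 8.72 CPM in CTR KD and at 6.53, 6.44 and 6.48 CPM in YAP KD. In CTR OE it was at 10.1, 9.21 and 7.64 CPM, and in YAP OE at 11.8, 10.8 and 11.1 CPM. The groups were separate in both experiments, and the log2FC was -0.38 (SE 0.0867) on knockdown and 0.33 (SE 0.0868) on overexpression. Zscan4a made up 20.6% ± 0.582 of the Zscan4 counts in CTR OE and 17.9% ± 1.09 in YAP OE, with no overlap between these libraries, while its share in the knockdown experiment was 21.7% in both groups. Zscan4f took 38.5% ± 1.15 of the family's counts in CTR OE and 40.9% ± 1.00 in YAP OE.

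The other three Zscan4 copies had the same directions. Zscan4c averaged 9.96 ± 1.20 CPM in CTR KD and 11.6 CPM in CTR OE, and its log2FCs were -0.35 (SE 0.0935) on knockdown and 0.50 (SE 0.0879) on overexpression. Zscan4b, at 2.59 ± 0.198 CPM in CTR KD, had the lowest log2FC of the family in YAP KD, -0.49 (SE 0.128), and 0.52 (SE 0.125) in YAP OE. Zscan4d had the highest one in YAP OE, 0.70 (SE 0.117), and -0.38 (SE 0.132) in YAP KD. The SEs of the 5 copies overlapped in YAP KD, so that no order among them can be read there.

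In YAP KD, 5 of 5 Zscan4 copies had all libraries below all controls, a pattern found in 12.9% of the 14606 genes tested. An adjusted p under 0.05 in edgeR's quasi-likelihood test, over all genes, was reached by Zscan4a and Zscan4f (2 of 5 copies, with 2.78% of all genes called lower). In YAP OE all 5 copies had every library above the controls (10.3% of 14804 genes), and 4 of 5 were called, all but Zscan4a (1.66% of all genes called higher). The median log2FC of the 5 copies was -0.38 in YAP KD and 0.52 in YAP OE, where the medians of all genes were 0.0058 and -0.0025. These counts describe the values by which the families were chosen.

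**Figure D2:**
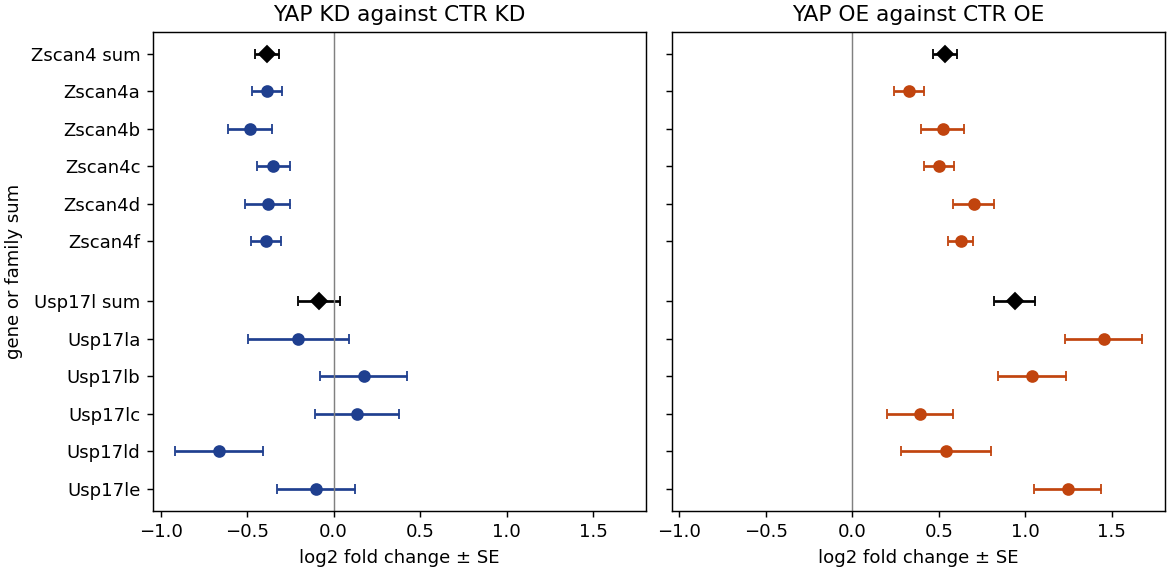
Log2FC ± SE of each copy (circles) and of each family sum (diamonds) in YAP KD against CTR KD (left) and in YAP OE against CTR OE (right), from edgeR fits to 6 libraries each. The Zscan4 copies lie between -0.49 and -0.35 on the left, the Usp17l copies lie on both sides of 0 there, and all 10 copies lie above 0 on the right.

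Usp17le (Dub3) took 31.8% ± 3.38 of the Usp17l counts in YAP OE and 25.5% ± 3.82 in CTR OE, where Usp17lc took 29.4% ± 5.25. Usp17le was at 0.680, 0.792 and 0.685 CPM in CTR KD and at 0.759, 0.796 and 0.485 CPM in YAP KD, where the groups overlapped. In CTR OE it was at 1.06, 0.573 and 0.720 CPM, and in YAP OE at 1.90, 1.60 and 2.07 CPM. YAP OE lay above the controls, with a log2FC of 1.24 (SE 0.196) or 2.37-fold.

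Usp17la (Dub1) had the largest log2FC of all 10 copies in YAP OE, 1.45 (SE 0.223) or 2.74-fold. It was at 0.270, 0.307 and 0.303 CPM in CTR OE and at 0.832, 0.846 and 0.748 CPM in YAP OE. Its counts were low, so that its libraries, although separate, carry a wide counting error. The lowest was 10 counts in YAP KD replicate 1, with an exact 95% Poisson interval of 4.8 to 18.4, and the highest 43.5 counts in YAP OE replicate 1, with 31.1 to 57.9 for the rounded value. These intervals cover counting error only.

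Usp17lb (Dub1a) went from 0.984, 0.552 and 0.625 CPM in CTR OE to 1.47, 1.51 and 1.48 CPM in YAP OE. The YAP OE libraries were all above the controls, with a log2FC of 1.04 (SE 0.195). They were nearly equal in CPM, but with 66 to 83.3 counts each this closeness is not a measure of their error. On TPM they were at 0.56 to 0.71. Usp17lc (Dub2) and Usp17ld (Dub2a) had smaller ones, 0.39 (SE 0.191) and 0.54 (SE 0.260). Usp17lc was at 0.984, 0.962 and 0.701 CPM in CTR OE and at 1.37, 1.08 and 1.02 CPM in YAP OE, groups that were separated by a narrow gap. Usp17ld was at 0.483, 0.307 and 0.284 CPM in CTR OE and at 0.484, 0.549 and 0.535 CPM in YAP OE. The lowest YAP OE library of Usp17ld and its highest CTR OE library were thus almost level.

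In YAP KD, Usp17ld alone among the Usp17l copies had every library below the controls (12.9% of all genes). It was at 0.483, 0.566 and 0.415 CPM in CTR KD and at 0.380, 0.273 and 0.280 CPM in YAP KD, a log2FC of -0.66 (SE 0.254). Usp17lc, which shares most sequence with it, had one of 0.14 (SE 0.245), and Usp17la, Usp17lb and Usp17le had -0.20, 0.17 and -0.10 with SEs of 0.226 to 0.291. In edgeR's test 0 of 5 Usp17l copies were called in YAP KD (5.49% of all genes called in either direction) and 3 of 5 in YAP OE, namely Usp17la, Usp17lb and Usp17le (1.66% of all genes called higher).

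By position, the Usp17l copies of the first group, Usp17lc and Usp17ld, had a smaller ratio in YAP OE than those of the second. This split was chosen after the values were seen and was not tested. Usp17lc and Usp17ld together were at 1.47, 1.28 and 0.985 CPM in CTR OE and at 1.87, 1.62 and 1.54 CPM in YAP OE, 1.35-fold by the ratio of means. Usp17la, Usp17lb and Usp17le together were at 2.31, 1.44 and 1.65 CPM in CTR OE and at 4.21, 3.96 and 4.31 CPM in YAP OE, 2.31-fold. The gap between the groups was wide for the second sum and narrow for the first. In the knockdown experiment the ratios were 0.883 and 0.987, and the libraries of both sums overlapped their controls. Usp17lc went from 29.4% of the family's counts in CTR OE to 19.7% ± 2.76 in YAP OE. The sums of these subsets were whole numbers in 6 of 12 libraries each, so that some reads were divided between the 2 subsets as well.

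**Figure D3:**
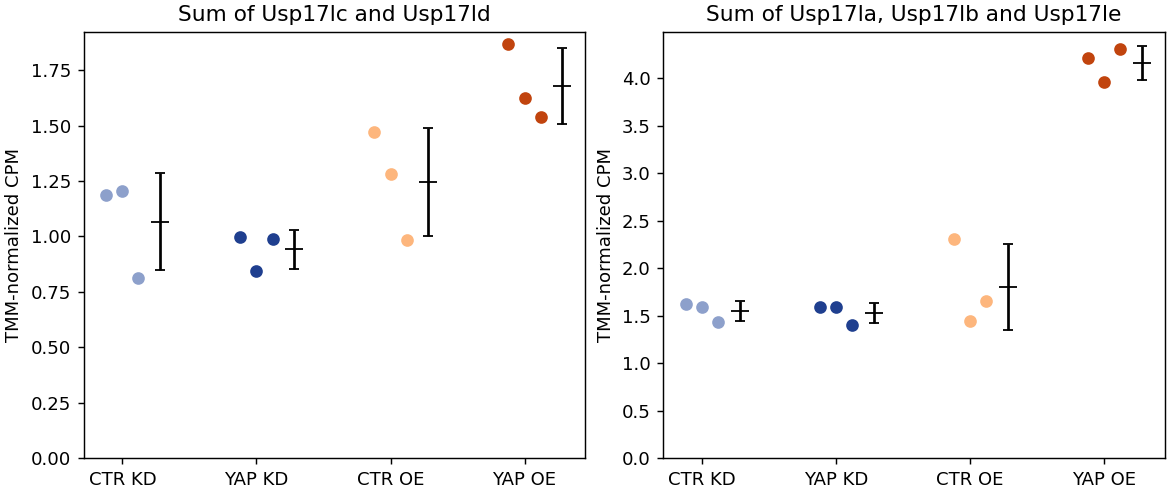
Summed TMM-normalized CPM per library of Usp17lc and Usp17ld (left) and of Usp17la, Usp17lb and Usp17le (right), on separate axes from 0, with mean ± SD as black bars (n = 3). In YAP OE the left sum lies at 1.54 to 1.87 CPM, close above CTR OE, and the right sum at 3.96 to 4.31 CPM, well above CTR OE at 1.44 to 2.31 CPM.

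On the deposited TPM scale fewer copies were separate. The Zscan4 sum was at 7.16 to 9.51 TPM in YAP KD and 9.64 to 12.6 TPM in CTR KD, and at 14.8 to 21.6 TPM in YAP OE and 11.1 to 13.7 TPM in CTR OE, still without overlap. Of the single Zscan4 copies 2 of 5 were separate in each experiment, Zscan4b and Zscan4d in YAP KD (4.72% of all genes were separate and lower on TPM) and Zscan4d and Zscan4f in YAP OE (4.33% separate and higher). For Usp17l the sum in YAP OE (1.75 to 2.26 TPM) stayed above CTR OE (0.91 to 1.33 TPM), as did Usp17la, Usp17lb and Usp17le. Relative to TMM-normalized CPM, the TPM of a library as a whole, taken as the median of 11901 genes, moved between -0.23 (YAP KD replicate 1) and 0.15 (YAP OE replicate 1) on the log2 scale.

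The control groups were also compared with each other, a contrast by which the families were not chosen. Its libraries are the controls of both contrasts that were used, so it is not independent of that choice. Between CTR OE and CTR KD the log2FC of the Zscan4 sum was 0.16 (SE 0.0914, edgeR adjusted p = 0.619) and that of the Usp17l sum 0.23 (SE 0.157, edgeR adjusted p = 0.699). The libraries of the 2 control groups overlapped for both sums. Of the single copies 0 of 10 were called by edgeR, with 0.733% of all genes called. Only Usp17lc had an unadjusted p under 0.05 (adjusted p = 0.400 in edgeR). DESeq2 called 0 of 5 Zscan4 copies and gave no adjusted p for the Usp17l copies, which its own filter on low counts left out. Plasmid against siRNA and one experiment against the other cannot be told apart in this comparison.

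Whether libraries of a group with more Zscan4 RNA also held more Usp17l RNA depended on the scale. After the group means were removed, the log2(CPM + 0.5) sums of both families had a Pearson's r of 0.527 over the 12 libraries (two-sided exact permutation within groups, p = 0.258) and a Spearman's rank correlation of 0.420 (p = 0.307 by the same permutation). CTR KD replicate 1 and CTR OE replicate 3 deviated most in Zscan4. Without these libraries r was 0.167 (exact permutation p = 0.75). On TPM, r was 0.738 (exact permutation p = 0.0185) and Spearman's rank correlation 0.769 (exact permutation p = 0.0139). Relative to TMM-normalized CPM, the TPM of a library as a whole moved between -0.23 and 0.15 on the log2 scale. The part of this shift, which both families of a library share, in the correlation was not tested. The same relation was computed on several scales and sets of libraries, by Pearson's r and by rank, and no adjustment was applied. Only on TPM was the exact permutation p under 0.05.

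With the group differences left in, the genes whose pattern was most like that of the Zscan4 sum over the 12 libraries, among 12408 genes with a mean of at least 1 CPM, were Gm2022 (Pearson's r 0.991), Gm20767 (0.982), Plekhg1 (0.977), Agpat9 (0.972) and Gm21293 (0.970). Gm2022 and Gm20767 belong to the 2-cell list below and Agpat9 encodes an acyltransferase of glycerolipid synthesis. Within groups the r of the 5 genes was 0.935, 0.888, 0.801, 0.620 and 0.580, in the same order. For the Usp17l sum they were Aox3 (0.957), Msrb3 (0.944), Tpx2 (0.939), Akap2 (0.939) and Sccpdh (0.939), of which Aox3 encodes an aldehyde oxidase, Msrb3 a methionine sulfoxide reductase and Tpx2 a spindle assembly factor. Within groups their r was -0.144 to 0.524. The r between the family sums was 0.906. All of these points share libraries and group differences, and they are given as a description.

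Other genes of the 2-cell programme, a list of 41 of which 39 were in the tables, mostly had log2FCs of the same sign as Zscan4. The list was chosen with earlier results of these data known, so its counts and p-values are a description. In YAP KD 3 of 25 tested genes fell, Gm5662, Gm2022 and Gm4027, and 0 rose (5.49% of all genes called). Gm5662 went from 9.64 ± 0.778 to 7.32 ± 0.174 CPM (log2FC -0.39, SE 0.0758, edgeR adjusted p = 0.0172), and the other two had log2FCs of -0.38 and -0.48 with edgeR adjusted p-values of 0.0456 and 0.0451. Of the 25 genes, 4 had a positive log2FC, and the median was -0.31, against 0.0058 over all genes. Zfp352, a zinc finger gene of the 2-cell stage, had one of -0.40 (SE 0.261, edgeR adjusted p = 0.458).

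On YAP overexpression 4 of 32 tested 2-cell genes rose, Pramel7, Gm4340, Gm6763 and Gm2022, and 0 fell (2.13% of all genes called). Pramel7, a PRAME family gene of the preimplantation embryo, went from 0.310 ± 0.114 to 0.996 ± 0.176 CPM (log2FC 1.68, SE 0.260, edgeR adjusted p = 0.0023). Gm6763 went from 7.34 ± 0.538 to 10.3 ± 0.0578 CPM (0.49, SE 0.0703, edgeR adjusted p = 0.00118). Gm4340 and Gm2022 had log2FCs of 0.61 and 0.42, with edgeR adjusted p-values of 0.0169 and 0.0458. Of the 32 genes, 31 had a positive log2FC, all but Trim43b, and the median was 0.38, against -0.0025 over all genes. Zfp352 had one of 0.75 (SE 0.225, edgeR adjusted p = 0.119). Gm2022 was the one gene called in both experiments. Apart from Pramel7, the called genes had counts that were not whole in any library of the comparison, as those of Zscan4. Genes with such counts share reads with other genes and may not be separate observations. Between the controls 0 of 28 tested 2-cell genes were called by edgeR (0.733% of all genes), with 5 at an unadjusted p under 0.05 (10.3% of all genes).

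**Figure D4:**
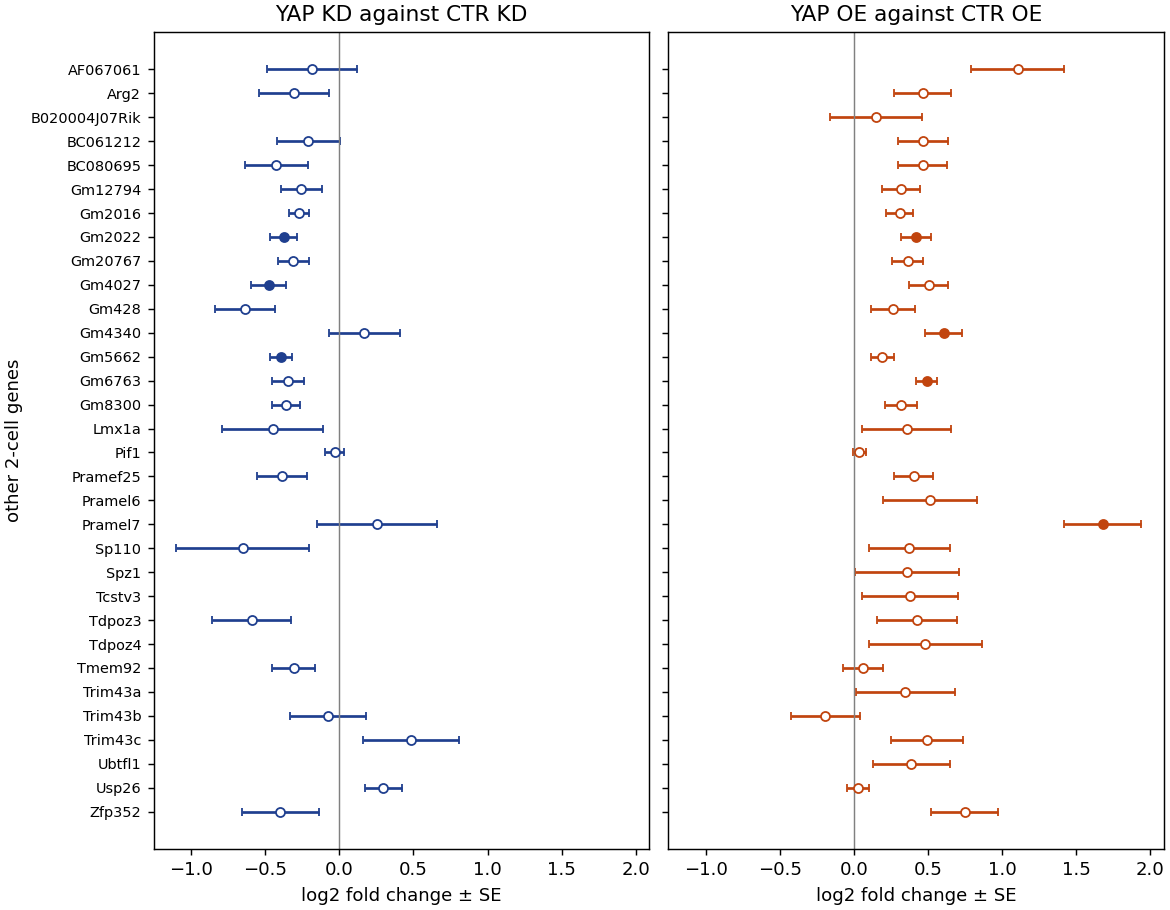
Log2FC ± SE of the 32 other 2-cell genes tested in at least 1 experiment, in YAP KD (left, 25 genes) and YAP OE (right, 32 genes) against their controls; filled points have an edgeR adjusted p under 0.05. On the left 3 genes are filled, all below 0, and on the right 4 genes are filled, all above 0, with Pramel7 farthest at 1.68.

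A list of 14 known regulators of the 2-cell-like state was set beside the families. Dux and Duxf3, which were on the 2-cell list, had no entry among the genes listed, so their levels are not known here. In edgeR 0 of 14 were called in YAP KD, in YAP OE or between the controls, with 3, 1 and 1 at an unadjusted p under 0.05. Of all genes tested 19.6%, 13.1% and 10.3% were at an unadjusted p under 0.05 in these comparisons, and 5.49%, 2.13% and 0.733% were called. The 3 regulators at an unadjusted p under 0.05 in YAP KD were Zfp42, Dppa2 and Tbx3. Zfp42 had a log2FC of -0.13 there (SE 0.0399, edgeR adjusted p = 0.0997) and of 0.026 in YAP OE (edgeR adjusted p = 0.876). Dppa2 and Dppa4 encode partner proteins that activate 2-cell genes. On knockdown Dppa2 had a log2FC of 0.13 (SE 0.0416, edgeR adjusted p = 0.113) and Dppa4 one of 0.069 (SE 0.0415, edgeR adjusted p = 0.408). On overexpression the values were -0.0038 and -0.040. Tbx3, a T-box factor that raises Zscan4 in ESCs, had 0.14 in YAP KD and -0.11 in YAP OE (edgeR adjusted p = 0.243 and 0.228). Trim28 and Setdb1, repressors of the 2-cell state, had log2FCs between -0.037 and 0.050 in both.

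Some markers of other cell types were called by edgeR in YAP OE, and 1 in YAP KD. In YAP OE, where the Zscan4 and Usp17l sums were higher, 3 of 6 tested trophoblast markers rose (1.66% of all genes called higher). They were Cdx2 (0.149 ± 0.0687 to 0.628 ± 0.0196 CPM, edgeR adjusted p = 0.00159), Gata3 (0.285 ± 0.0980 to 1.04 ± 0.162 CPM, edgeR adjusted p = 0.000886) and Ascl2 (edgeR adjusted p = 0.0459). Of 7 tested primitive endoderm markers 1 rose, Dab2 (edgeR adjusted p = 0.00645), and 4 of 7 had a positive log2FC. The summed level of the 7 trophoblast markers was 51.6 to 56.1 CPM in YAP OE and 54.8 to 58.9 CPM in CTR OE. Most of this sum was Tfap2c, which ESCs also express and which had a log2FC of -0.16 in YAP OE (edgeR adjusted p = 0.0935). In YAP KD, where the Zscan4 sum was lower, 1 of 3 tested trophoblast markers was called (5.49% of all genes called in either direction). This was Tfap2c, which rose by 0.47 on the log2 scale (edgeR adjusted p = 0.00217), whereas Eomes and Ascl2 had log2FCs of -0.32 and -0.36. The trophoblast sum was 77.4 to 86.8 CPM, against 57.5 to 64.3 CPM in CTR KD. Elf5, a defining trophoblast marker, was at 0 to 0.171 CPM in all libraries. The part of these markers in the levels of Zscan4 and Usp17l was not tested.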

How the data were processed

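Total RNA of 12 ESC libraries was sequenced and, per the labels and the submitters' processing notes, aligned with STAR to mm10 and counted per RefSeq gene with RSEM; versions are not given in the sources used here, nor is a strand setting. The deposited expected counts are estimated counts per gene, not normalized, with shared reads divided between genes. The deposited TPM values divide the expected counts by effective length and are set to a common total per library. They served to compare levels between genes and as an alternative. The authors' FPKM values and the deposited lengths were not used for tests, and the deposited lengths served only to describe the transcripts.

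Expected counts were rounded to whole numbers and analysed in R 4.3.3 with edgeR 4.0.16 (filterByExpr, TMM factors, glmQLFit and glmQLFTest, two-sided, Benjamini-Hochberg adjusted p under 0.05), each comparison on its own 6 libraries and over all genes. For the family values, the 5 copies were replaced by their sum in the table of all genes. The procedure was run on simulated data with 200 changed genes. These had higher mean counts than the Usp17l copies in CTR KD and larger changes than the Zscan4 copies, and shared reads were not simulated. The simulation therefore does not show how well changes of these families are found. Replicates of a group differed from each other by more than sampling noise. Alternatives were DESeq2 1.42.0, limma 3.58.1 on log2(TPM + 1), relative log expression factors, library totals without factors, no filter beyond 1 count, a replicate block, family sums without the copy of highest count, and leaving out each library.

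Sequences and positions are those of RefSeq for GRCm38.p6, in which 9 of the 10 transcript versions were found. Coding sequences came from the mouse GENCODE set of another build and served only for identity, without coordinates. Zscan4a was not in it. Named genes were every member, the genes of the lists, and the 5 genes most like each family sum. The families and the lists were chosen with earlier results of these data known. Replicate numbers were not used to pair libraries, since same-numbered libraries did not deviate together over all genes. The Zscan4 sum did so in the overexpression experiment. Its log2 deviations were 0.137, 0.053 and -0.190 in CTR OE replicates 1 to 3 and 0.108, 0.0033 and -0.111 in YAP OE. In CTR KD (0.161, -0.122 and -0.0387) and YAP KD (-0.0101, -0.0012 and 0.0113) the orders differed. With the replicate block the SE of this sum went from 0.0707 to 0.0439 in YAP OE and from 0.0693 to 0.0686 in YAP KD. Whether same-numbered libraries are pairs was not tested.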

Additional observations from a re-analysis of the deposited data

How the results depend on the processing

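The family sums kept their sign under every alternative run, and 116 of the 152 values of all alternatives kept their direction and side of the threshold or moved little, with 0 reversed. Counts of genes called are among these values and have no sign to reverse. Over the scalings, filters, tools and the replicate block, the log2 fold change of Zscan4 was -0.394 to -0.359 in YAP KD and 0.531 to 0.543 in YAP OE. Summed without Zscan4f, the copy of highest count, it was -0.379 and 0.474. With all copies, and each library left out in turn, it was -0.446 to -0.304 and 0.442 to 0.604. That of Usp17l in YAP OE was 0.84 to 1.13 when each library was left out in turn and 0.56 on log2(TPM + 1), where by construction the added 1 shrinks low values. In YAP KD it was -0.182 to -0.0306 when each library was left out. Between the controls the leave-one-out ranges were 0.0834 to 0.245 for Zscan4 and 0.0336 to 0.318 for Usp17l.

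In YAP OE, Usp17la, Usp17le, Zscan4d and Zscan4f were called under 12 of 12 alternatives, Zscan4c under 11 and Usp17lb under 10 (lost without CTR OE replicate 2 or CTR OE replicate 3). Zscan4b was called under 6, Zscan4a under 3, and Usp17lc and Usp17ld under 0. The call of Zscan4b was lost with library totals, on log2(TPM + 1), and without CTR OE replicate 1 or 3 or YAP OE replicate 1 or 2. In YAP KD, Zscan4a and Zscan4f were called under 5 of 12 each, and both calls were lost with the replicate block, on log2(TPM + 1), and without any 1 of the YAP KD libraries or CTR KD replicate 3. That of Zscan4a was also lost without CTR KD replicate 1, and that of Zscan4f with library totals. All genes called in YAP KD, 802, went to 193 with the replicate block and 74 on log2(TPM + 1), and to between 298 and 1019 without 1 library (under 400 without CTR KD replicate 3 or any YAP KD replicate). Those called in YAP OE, 316, went to 556 with no filter, 87 on log2(TPM + 1) and 154 to 327 without 1 library (under 200 without any 1 of the CTR OE replicates). Those between the controls, 108, went to 170 with DESeq2, 37 with the replicate block, 40 on log2(TPM + 1) and 20 to 420 without 1 library (420 without CTR KD replicate 2, under 40 without CTR KD replicate 3 or any CTR OE replicate). Of the other 2-cell genes, the 3 called in YAP KD became 1 with library totals or DESeq2, 5 with no filter, 0 with the replicate block or log2(TPM + 1), and 0 to 4 without 1 library (0 without YAP KD replicate 1 or 3, 1 without YAP KD replicate 2, CTR KD replicate 1 or CTR KD replicate 3). The 4 called in YAP OE became 8 with no filter, 2 on log2(TPM + 1), and 2 to 5 without 1 library (2 without CTR OE replicate 2, CTR OE replicate 3 or YAP OE replicate 1). The causes were not tested.

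Over all genes, deviations of same-numbered libraries correlated at -0.349 to 0.0621. With the replicate block the Zscan4 sum had log2 fold changes of -0.38 in YAP KD and 0.54 in YAP OE, and the Usp17l sum -0.074 and 0.94. The within-group correlation of the families was 0.738 on TPM (exact permutation p = 0.0185), the scale of which moved by library relative to CPM. On CPM it was 0.272 to 0.718 without 1 library. Depth limits the Usp17l copies most, with 10 to 116 counts per library, and the groups of 3 libraries limit all tests.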
